A study of Mus musculus with 4 samples.

Results

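Messenger RNA of 10 genes of insulin and insulin-like growth factor (IGF) signalling was followed in the adult mouse brain after ethanol exposure soon after birth. The genes are the ligand Igf1, the receptors Igf1r and Insr, the receptor substrates Irs1 and Irs2, and the binding proteins Igfbp2, Igfbp3, Igfbp4, Igfbp5 and Igfbp6. A probe set, the group of probes on the array that reads 1 transcript, was taken when its annotation gave exactly 1 of these symbols. This rule found all 10 genes among the 19938 that a probe set names alone, and 12 of 35556 probe sets, since Insr and Irs1 have 2 each.

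The mice were C57BL/6J males. Ethanol pups were injected under the skin with 20% ethanol in saline at postnatal days 4 and 7, receiving 2.5 g/kg 2 times on each day with 2 hours in between, and control pups received saline alone. Per the labels, weaning was at day 25 and whole brains were taken at day 60, whereas the study's methods give other days. Each of the 4 Affymetrix Mouse Gene 1.0 ST arrays held RNA pooled from 3 males of different litters, so 12 mice gave 2 control arrays (control 1 and control 3) and 2 ethanol arrays (ethanol 2 and ethanol 4). Littermates were matched between treatments, but the labels do not say which pools match, and single animals cannot be seen within a pool. The groups follow the titles of the arrays. The treatment entry of the labels names the opposite group for control 1 and for ethanol 4, so all labels agree only for control 3 and ethanol 2.

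The signals are log2 values, on which a difference of 1 is a doubling. The median signal over all probe sets was 6.61 on control 1 and 6.51 on control 3, and 6.33 on ethanol 2 and 6.38 on ethanol 4. The medians of both ethanol arrays were thus the lower ones, and 80.2% of all probe sets lay below 0 for ethanol minus control, and the median difference was -0.146. Each member is therefore described as deposited and again after a quantile normalization, which sets the 4 arrays to 1 distribution and brings the median difference to -0.00424. Some values, of members and of other genes, are given as deposited only. The term past the limits is used of a probe set whose 2 groups were at least 1.2-fold apart and whose unadjusted limma p was under 0.05. After Benjamini-Hochberg adjustment over all 35556 probe sets, 1 had an adjusted limma p under 0.05 as deposited, 2 after quantile normalization, and 7876 had an unadjusted p under 0.05 as deposited.

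Insulin and IGF1 bind related receptors on the cell surface that carry a tyrosine kinase inside the cell. The active receptor phosphorylates substrate proteins such as IRS1 and IRS2, which dock PI3K and adaptors and so lead to AKT, mTOR and the RAS and ERK kinases, while FOXO transcription factors are held out of the nucleus. IGF binding proteins carry IGFs in body fluids and tissue and set how much of them reaches the receptor. In the brain the pathway is known for its part in growth, survival and myelination, and IRS proteins are known to be degraded or transcribed less when signalling is sustained.

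The promoters of the substrates and of the ligand are shown, because Irs1 and Igf1 are the members past the limits after quantile normalization and Irs2 is the partner of Irs1. The windows come from RefSeq on build GRCm38.p6 and are 300 bases long. Of the 10 genes 9 were matched, with 10 windows, and Insr was not. The sequences are printed 5′ to 3′ on the strand of the gene, and capitals mark the letters CAAAACA, the core of the insulin response element, and CACGTG, an E-box, searched on both strands (CAAAACA reads TGTTTTG on the other strand).
Irs1: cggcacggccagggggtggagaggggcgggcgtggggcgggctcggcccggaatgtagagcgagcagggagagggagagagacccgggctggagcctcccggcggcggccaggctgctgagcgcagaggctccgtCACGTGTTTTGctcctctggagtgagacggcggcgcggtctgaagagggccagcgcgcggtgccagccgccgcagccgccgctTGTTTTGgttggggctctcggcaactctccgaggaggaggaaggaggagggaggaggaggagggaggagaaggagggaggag
Irs2: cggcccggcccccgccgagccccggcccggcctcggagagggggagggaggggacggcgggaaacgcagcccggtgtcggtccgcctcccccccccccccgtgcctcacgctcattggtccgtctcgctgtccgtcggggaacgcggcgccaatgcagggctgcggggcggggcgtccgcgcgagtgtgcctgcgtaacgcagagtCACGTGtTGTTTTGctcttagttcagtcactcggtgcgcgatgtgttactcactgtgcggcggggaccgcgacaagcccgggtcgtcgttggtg
Igf1: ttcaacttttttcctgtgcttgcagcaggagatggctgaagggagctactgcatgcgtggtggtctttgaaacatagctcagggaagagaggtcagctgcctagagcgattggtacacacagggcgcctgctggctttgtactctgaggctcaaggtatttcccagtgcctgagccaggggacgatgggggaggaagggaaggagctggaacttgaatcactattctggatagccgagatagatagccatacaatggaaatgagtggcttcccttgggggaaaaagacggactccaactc
The Irs1 window is at chr1:82291390-82291689 on the minus strand, the Irs2 window at chr8:11008880-11009179 on the minus strand, and the Igf1 window at chr10:87860861-87861160 on the plus strand. In the Irs1 window CAAAACA was found 2 times on the strand opposite to the gene, and 1 of the matches overlaps the single CACGTG. In the Irs2 window 1 match of CAAAACA lies 1 base from the single CACGTG. The Igf1 window held neither. Of all 32851 windows of this length, 6.28% held CAAAACA, 7.15% CACGTG and 0.408% both. Of the other 7 member windows, 1 of the 2 of Igfbp2 held CACGTG, none held CAAAACA, and no member window held the FOXO letters TGTTTAC, which 3.65% of all windows held. The Irs1 window was 71.3% GC with 28 CG dinucleotides and the Irs2 window 72.0% with 41, against 52.3% with 6 for Igf1 and a median over all windows of 52.7% with 7. The motifs were picked after these sequences had been seen, and a match is a description of letters and not a site.

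Irs1 was the member with the largest difference in either scaling, lower on the ethanol arrays, and Igf1 was the member with the largest difference upward. As deposited, 3 of the 12 probe sets were lower past the limits (Irs1, Igf1r and 1 of the 2 of Insr), 0 were higher and 9 were neither. Of all probe sets 17.9% were lower past the same limits and 2.23% higher. After quantile normalization 1 was lower (Irs1), 1 was higher (Igf1) and 10 were neither, against 5.87% lower and 5.71% higher of all probe sets. No member had an adjusted limma p under 0.05. The adjusted values ranged from 0.171 to 0.701 as deposited. The range was 0.315 to 0.953 after quantile normalization, and 4 and 2 members in turn had an unadjusted p under 0.05.

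As deposited 11 of the 12 lay below 0, and their median difference was -0.15 beside -0.146 for all probe sets. After quantile normalization 6 lay below 0 and 6 above, with a median of 0.005 beside -0.00424. Both ethanol arrays lay below both control arrays for 8 members and above them for 1 as deposited, where 52.7% and 7.25% of all probe sets did so. After quantile normalization this held for 3 members below and 4 above, against 24.9% and 24.0% of all probe sets.

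**Figure D1:**
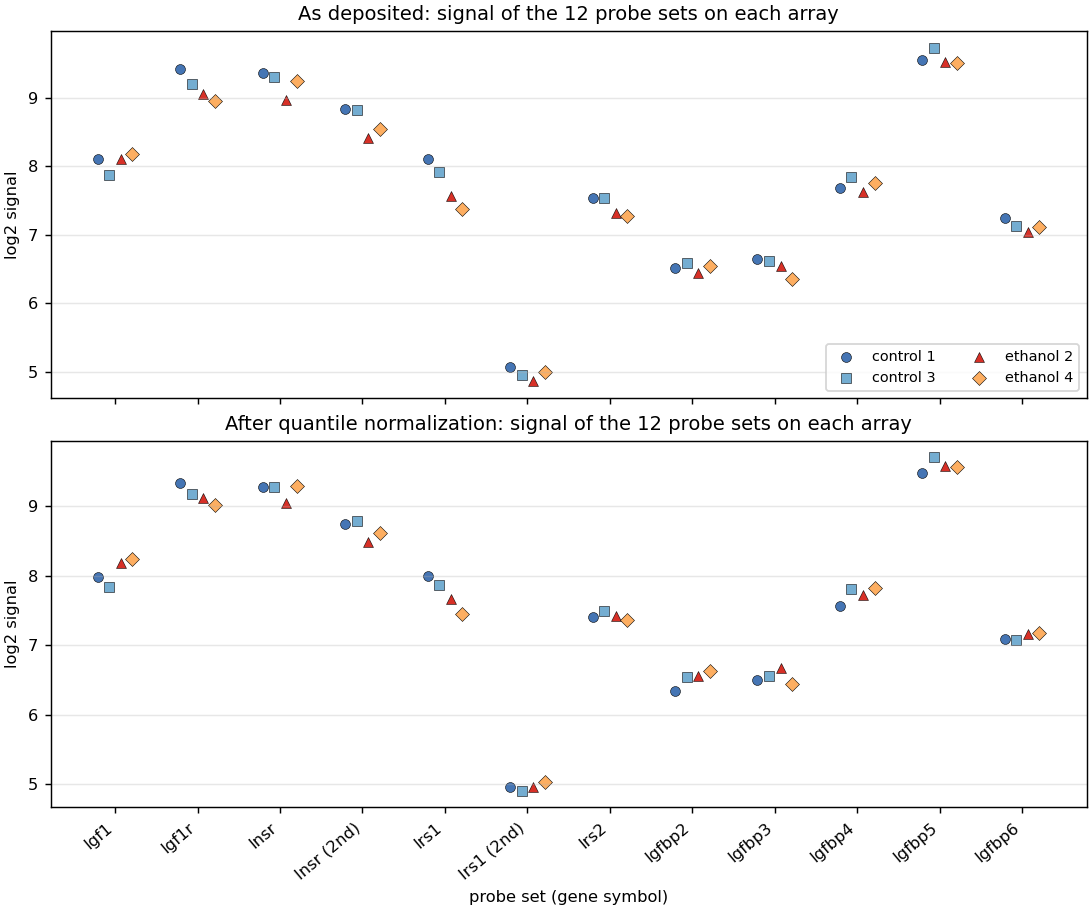
Log2 signal of the 12 probe sets (horizontal axis, by gene symbol) on each of the 4 arrays, as deposited above and after quantile normalization below, with 1 symbol for each array and no averaging. Both ethanol arrays sit below both control arrays for Irs1 in each panel, and above them for Igf1, by 0.01 or more as deposited and more clearly after quantile normalization.

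Igf1 encodes insulin-like growth factor 1, the growth factor made in liver and also locally in the brain. As deposited control 1 gave a log2 signal of 8.10, control 3 of 7.88, ethanol 2 of 8.11 and ethanol 4 of 8.18. The ethanol arrays were both above the controls, but ethanol 2 and control 1 differed by 0.01 only. The difference was 0.15 (SE 0.11, limma 95% interval -0.14 to 0.45, adjusted p = 0.434), where the median of all probe sets was below 0. The quantile-normalized controls read 7.98 and 7.84 and the ethanol arrays 8.18 and 8.24. The groups then stood apart, with a difference of 0.30 (SE 0.09, interval 0.05 to 0.55), a 1.23-fold higher signal that was past the limits (adjusted p = 0.328). That call held without control 1 (0.38), and was lost without control 3 (0.23), without ethanol 2 (0.33) and without ethanol 4 (0.27). With the groups set by the treatment entry it was lost as well, at 0.05 (SE 0.18), beside 0.08 (SE 0.16) as deposited. Igf1 was the only member above 0 as deposited.

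The other ligands gave smaller differences. Igf2, the imprinted growth factor, was at -0.04 (SE 0.13) as deposited and 0.08 (SE 0.12) after quantile normalization, and Ins2, an insulin gene, at -0.06 (SE 0.11) and 0.11 (SE 0.11). The groups overlapped for both genes in both scalings. The signal of Ins2 lay between 5.23 and 5.43 as deposited.

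Igf1r encodes the receptor that binds IGF1 with the highest affinity. Its signal was 9.42 on control 1 and 9.20 on control 3, and 9.05 on ethanol 2 and 8.96 on ethanol 4. Both ethanol arrays were below both controls, by at least 0.15. The difference was -0.31 (SE 0.11, interval -0.61 to -0.01), a 1.24-fold lower signal just past the limits (adjusted p = 0.222). After quantile normalization the arrays read 9.34 and 9.17 against 9.12 and 9.01, still without overlap, and the difference of -0.19 (SE 0.10, interval -0.46 to 0.08, adjusted p = 0.464) was not past the limits. As deposited the call was also lost without control 1 (-0.19), without ethanol 2 (-0.35) and without ethanol 4 (-0.26), in the methods' own test (adjusted p = 0.392), and with control 1 blocked with ethanol 4 (adjusted p = 0.285). Grouping by the treatment entry turned the sign, to 0.15 (SE 0.19) as deposited and 0.14 (SE 0.13) after quantile normalization.

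Insr encodes the insulin receptor, and its 2 probe sets agreed in direction. The brighter read 9.36 and 9.31 on control 1 and 3, and 8.97 and 9.24 on ethanol 2 and 4, a difference of -0.23 (SE 0.12, interval -0.55 to 0.10, adjusted p = 0.324). It was not past the limits, and after quantile normalization its groups overlapped, at 9.28 and 9.27 against 9.04 and 9.29. The dimmer read 8.83 and 8.82 on the controls, which lay 0.01 apart, and 8.41 and 8.55 on the ethanol arrays. Its difference was -0.34 (SE 0.09, interval -0.59 to -0.10), 1.27-fold lower and past the limits (adjusted p = 0.178). After quantile normalization it was -0.21 (SE 0.09, interval -0.44 to 0.02, adjusted p = 0.394), with the groups still apart and the limits not passed. As deposited it passed them without ethanol 4 (-0.41) and not without control 1 (-0.34), control 3 (-0.35) or ethanol 2 (-0.28). It also passed them in both replicate blocks and, alone among the members, in the methods' own test (adjusted p = 0.327). It was not past them with arrays centred on their medians (-0.13) or by the treatment entry, which gave -0.06 (SE 0.20) as deposited and -0.08 (SE 0.14) after quantile normalization. Without ethanol 4 the brighter probe set was past the limits as well (-0.36).

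Of the receptors outside the 10 genes, Igf2r, which clears IGF2, was at -0.05 (SE 0.14) as deposited and 0.09 (SE 0.15) after quantile normalization, and Insrr, a receptor related to Insr, at -0.02 (SE 0.11) and 0.11 (SE 0.10). Both overlapped between the groups in both scalings. Whether the receptors differ from each other was not tested.

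**Figure D2:**
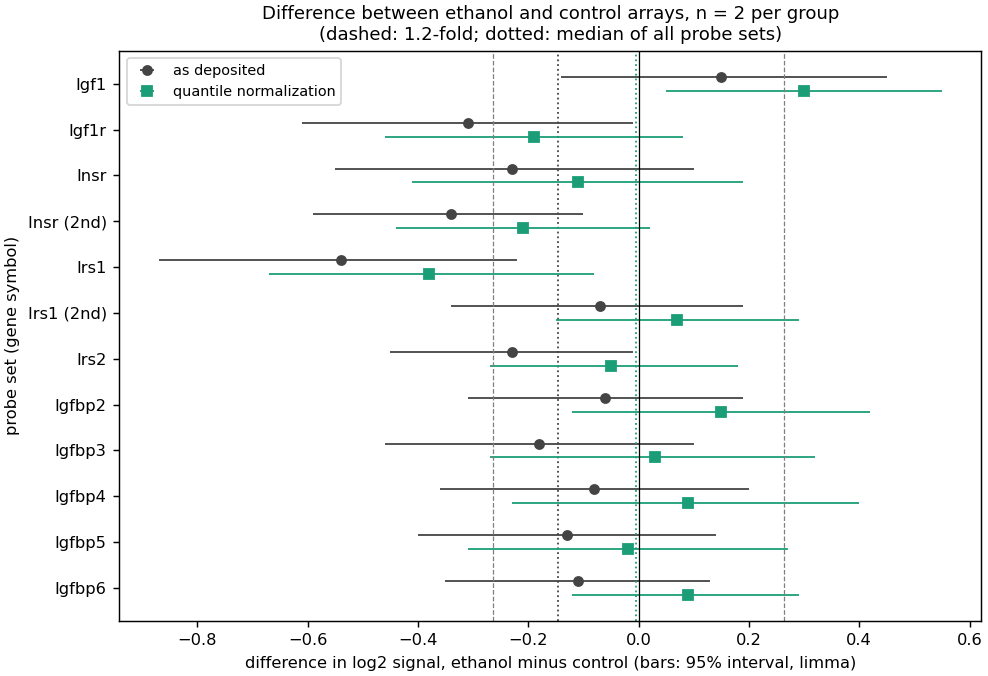
Difference in log2 signal, ethanol minus control (horizontal axis), of each of the 12 probe sets, as deposited and after quantile normalization, with limma 95% intervals and 2 arrays in each group. Dashed lines mark 1.2-fold and dotted lines the median of all probe sets in each scaling. The Irs1 interval lies below 0 in both scalings, from -0.87 to -0.22 and from -0.67 to -0.08.

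Irs1 encodes insulin receptor substrate 1, which links both receptors to PI3K. The signal of its brighter probe set was 8.11 on control 1 and 7.91 on control 3, and 7.57 on ethanol 2 and 7.37 on ethanol 4. Every ethanol array was below every control array, by 0.34 to 0.74. The difference was -0.54 (SE 0.12, interval -0.87 to -0.22), which leaves 68.6% of the control signal, or 1.46-fold lower, past the limits (adjusted p = 0.171). The 2 control arrays lay 0.20 apart and the 2 ethanol arrays 0.19. After quantile normalization the controls were at 8.0 and 7.87 and the ethanol arrays at 7.66 and 7.45, with a difference of -0.38 (SE 0.11, interval -0.67 to -0.08), 1.3-fold lower and still past the limits (adjusted p = 0.315).

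Of all probe sets that name 1 gene, 3.43% were lower past the limits after quantile normalization and 3.42% in both scalings. Passing in both therefore adds little to passing after quantile normalization alone. The brighter Irs1 probe set was the only member lower past the limits in both scalings. As deposited it stayed past them with each of the 4 arrays left out in turn, between -0.65 and -0.44, and in both replicate blocks. In the methods' own test, which takes each probe set by itself, it was not past the limits (adjusted p = 0.345). After quantile normalization the call was lost without control 1 (-0.32) and without ethanol 4 (-0.27), the arrays whose labels disagree. Between control 3 and ethanol 2 alone the difference was -0.34 as deposited, a single pair with no test. The median of all probe sets for this pair was -0.136. After quantile normalization the Irs1 difference for the pair was -0.21, which is less than 1.2-fold. With the groups set by the treatment entry the difference of Irs1 was 0.20 (SE 0.27) as deposited, so its sign rests on the titles being right.

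The second probe set of Irs1, named through 1 GenBank accession and not matched to a RefSeq transcript, was dim and showed another pattern. It read 5.06 and 4.95 on the controls and 4.86 and 5.0 on the ethanol arrays, overlapping, with a difference of -0.07 (SE 0.10, adjusted p = 0.668). After quantile normalization the difference was 0.07 (SE 0.08). It was the only member with a mean below 5, and the disagreement of the 2 probe sets was not tested.

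Irs2 encodes the other main substrate in the brain. It read 7.54 and 7.53 on the controls and 7.32 and 7.28 on the ethanol arrays, with gaps of 0.01 and 0.04 within the groups. The difference of -0.23 (SE 0.08, interval -0.45 to -0.01, adjusted p = 0.216) had an unadjusted limma p under 0.05 and was smaller than 1.2-fold and so not past the limits. After quantile normalization the groups overlapped, at 7.40 and 7.49 against 7.42 and 7.36, with a difference of -0.05 (SE 0.08, interval -0.27 to 0.18). Whether Irs1 and Irs2 differ from each other was not tested. Over the 6 probe sets of receptors and substrates the median difference was -0.27 as deposited and -0.15 after quantile normalization.

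**Figure D3:**
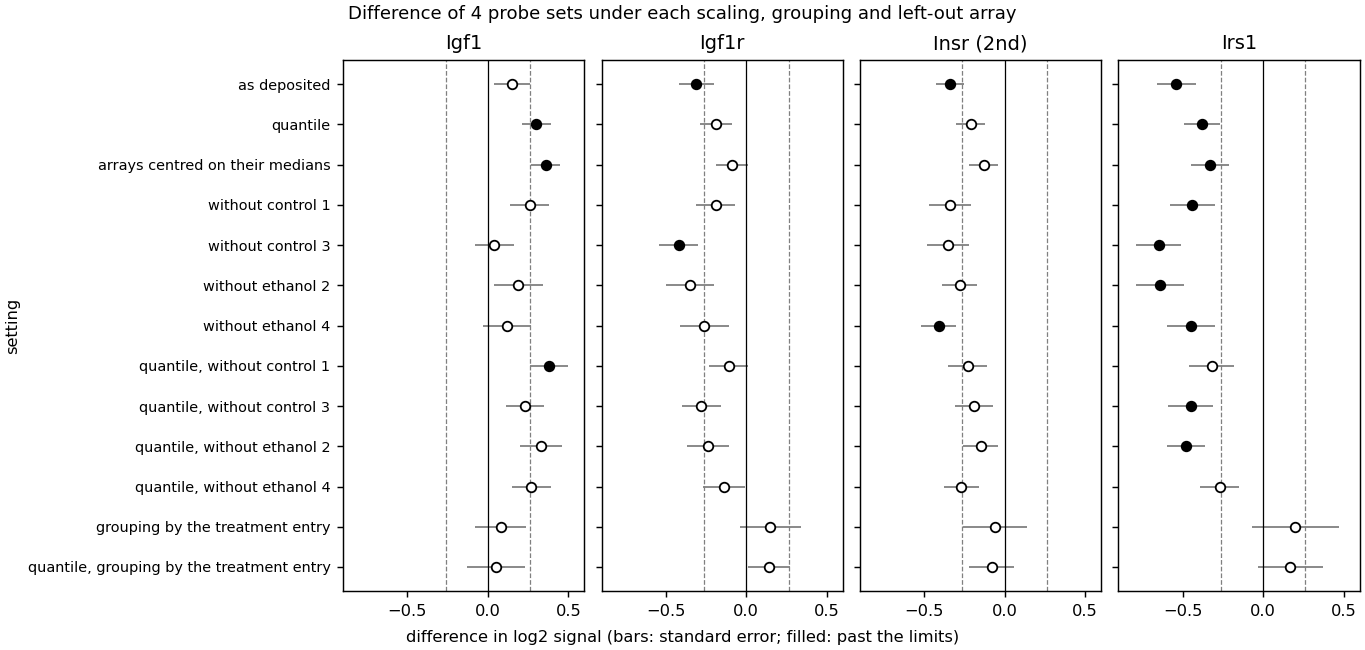
Difference in log2 signal, ethanol minus control (horizontal axis), of Igf1, Igf1r, the dimmer Insr probe set and the brighter Irs1 probe set under each scaling, with each array left out and with the groups set by the treatment entry. Bars are standard errors, filled points are past the limits, and dashed lines mark 1.2-fold. The Irs1 points lie below 0 in every setting grouped by title and at 0.20 and 0.17 when grouped by the treatment entry.

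None of the 5 binding protein probe sets passed the limits in either scaling. Igfbp2, abundant in the developing brain, choroid plexus and meninges, read 6.51 and 6.59 on the controls and 6.44 and 6.54 on the ethanol arrays, a difference of -0.06 (SE 0.09). Igfbp3, the main carrier of IGF1 in blood, read 6.65 and 6.61 against 6.55 and 6.36, a difference of -0.18 (SE 0.10). The groups of Igfbp2 overlapped, and those of Igfbp3 did not. Igfbp4, which mainly restrains IGF action, read 7.69 and 7.85 against 7.63 and 7.75, a difference of -0.08 (SE 0.11). Igfbp5, which also binds extracellular matrix, read 9.55 and 9.73 against 9.52 and 9.51, a difference of -0.13 (SE 0.10). Igfbp6, which prefers IGF2, read 7.24 and 7.13 against 7.04 and 7.11, a difference of -0.11 (SE 0.09). The groups of Igfbp4 overlapped, and both ethanol arrays of Igfbp5 and of Igfbp6 lay below the controls, by as little as 0.03 and 0.02.

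All 5 lay below 0 as deposited, with a median of -0.11, which is nearer to 0 than the -0.146 of all probe sets. After quantile normalization 4 lay above 0, and the median was 0.09. Igfbp2 was then at 0.15 (SE 0.10), Igfbp4 and Igfbp6 at 0.09, Igfbp3 at 0.03 and Igfbp5 at -0.02. The sign of Igfbp2, Igfbp3, Igfbp4 and Igfbp6 thus depended on the scaling. Their limma 95% intervals after quantile normalization ran from -0.12 to 0.42 for Igfbp2 and from -0.12 to 0.29 for Igfbp6, so with 2 arrays in a group a difference of 1.2-fold upward cannot be told from none. Of the other binding proteins as deposited, Igfbpl1 was the highest at 0.03 (SE 0.10) and Igfbp1 the lowest at -0.25 (SE 0.16). After quantile normalization Igfbpl1 was at 0.20 (SE 0.09) with the groups apart, and Igfbp1 at -0.09 (SE 0.13) with overlap. Neither passed the limits in either scaling.

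The wider pathway was read from a list of 96 further genes in 13 roles, of which 86 had a probe set naming them alone. For a gene with several, the brightest was used. As deposited 18 of the 86 (20.9%) were lower past the limits, 0 were higher and 68 were neither, against 16.0% lower and 0.546% higher of all probe sets that name 1 gene. After quantile normalization 5 (5.81%) were lower and 2 (2.33%) higher, against 3.43% and 3.65%. Leaving out 1 array as deposited brought the lower count to 8 without control 1, 6 without ethanol 2, 11 without control 3 and 9 without ethanol 4. None of the 86 had an adjusted limma p under 0.05 in either scaling, with 18 and 11 at an unadjusted p under 0.05.

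The 5 genes lower past the limits in both scalings were 2 phosphatases that act on the receptors, an adaptor and 2 genes of the mTOR branch. Ptpn1, which encodes the phosphatase PTP1B that switches off the insulin receptor, read 7.75 and 7.83 on the controls and 7.33 and 7.20 on the ethanol arrays, -0.53 (SE 0.10) as deposited and -0.35 (SE 0.11) after quantile normalization. Ptprf, which encodes the receptor phosphatase LAR, read 8.87 and 8.61 against 8.29 and 8.26, -0.47 (SE 0.12) and -0.34 (SE 0.10). Gab2, an adaptor with docking sites for PI3K, read 9.43 and 9.36 against 8.92 and 9.11, -0.38 (SE 0.11) and -0.27 (SE 0.10). Ptpn1 and Ptprf restrain the receptors, whereas Gab2 passes their signal on. Tsc1, part of the complex that restrains mTOR, read 9.38 and 9.18 against 8.89 and 8.74, -0.46 (SE 0.12) and -0.34 (SE 0.10). Eif4ebp2, which holds back translation until mTOR phosphorylates it, read 9.83 and 9.87 against 9.34 and 9.49, -0.43 (SE 0.10) and -0.33 (SE 0.09). Of all probe sets that name 1 gene, 3.42% were lower past the limits in both scalings and 3.43% after quantile normalization. For these 5 genes too, passing in both adds little to passing after quantile normalization alone.

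By role, the lower counts as deposited stand beside the 16.0% of all probe sets naming 1 gene. They were 1 of 4 receptors (Igf1r), 5 of 15 receptor adaptors (Irs1 among them), 2 of 7 receptor inhibitors and 5 of 14 mTOR genes. For PI3K and AKT genes they were 2 of 9, for their inhibitors 1 of 8, and for RAS and ERK genes 2 of 5. In the glucose transporter family the count was 2 of 5 (Slc2a8 and Slc2a13). In the GSK3 and FOXO, growth hormone axis and binding protein protease lists it was 0 of 6, 0 of 5 and 0 of 6. After quantile normalization 2 adaptors, 2 receptor inhibitors and 2 mTOR genes were left, and 0 in every other role, beside 3.43% of all probe sets naming 1 gene. The lowest adaptor outside the 10 genes was Grb2, which brings in the RAS activator SOS, at -0.40 (SE 0.08) as deposited and -0.22 (SE 0.08) after quantile normalization. The lowest PI3K gene was the regulatory subunit Pik3r2, at -0.38 (SE 0.10) and -0.24 (SE 0.09). Araf, a kinase upstream of ERK, was at -0.34 (SE 0.09) and -0.23 (SE 0.09), the glucose transporter Slc2a8 at -0.28 (SE 0.09) and -0.09 (SE 0.09), and the lipid phosphatase Inpp4a at -0.26 (SE 0.08) and -0.20 (SE 0.08). These 5 passed the limits as deposited and not after quantile normalization.

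At the other end, Pik3cb, a catalytic subunit of PI3K, was at 0.34 (SE 0.15) as deposited and at 0.46 (SE 0.13) after quantile normalization, and the adaptor Sh2b2 at 0.18 (SE 0.13) and 0.36 (SE 0.13). Both were higher past the limits in the second scaling only. The highest of the other roles, Grb14 (0.08, SE 0.10), Eif4e (0.15, SE 0.13), Slc2a1 (0.03, SE 0.09), Inpp5d (-0.02, SE 0.11), Foxo6 (-0.00, SE 0.10), Htra1 (-0.00, SE 0.12) and Map2k1 (-0.19, SE 0.08), did not pass the limits as deposited. Nor did Foxo1 (-0.18, SE 0.11) or the IGF binding protein protease Pappa (-0.25, SE 0.15), the lowest of their lists. After quantile normalization the genes from Grb14 to Pappa, in the order named, were at 0.25, 0.26, 0.08, 0.18, 0.14, 0.11, -0.12, -0.02 and -0.06. None of them passed the limits in that scaling.

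**Figure D4:**
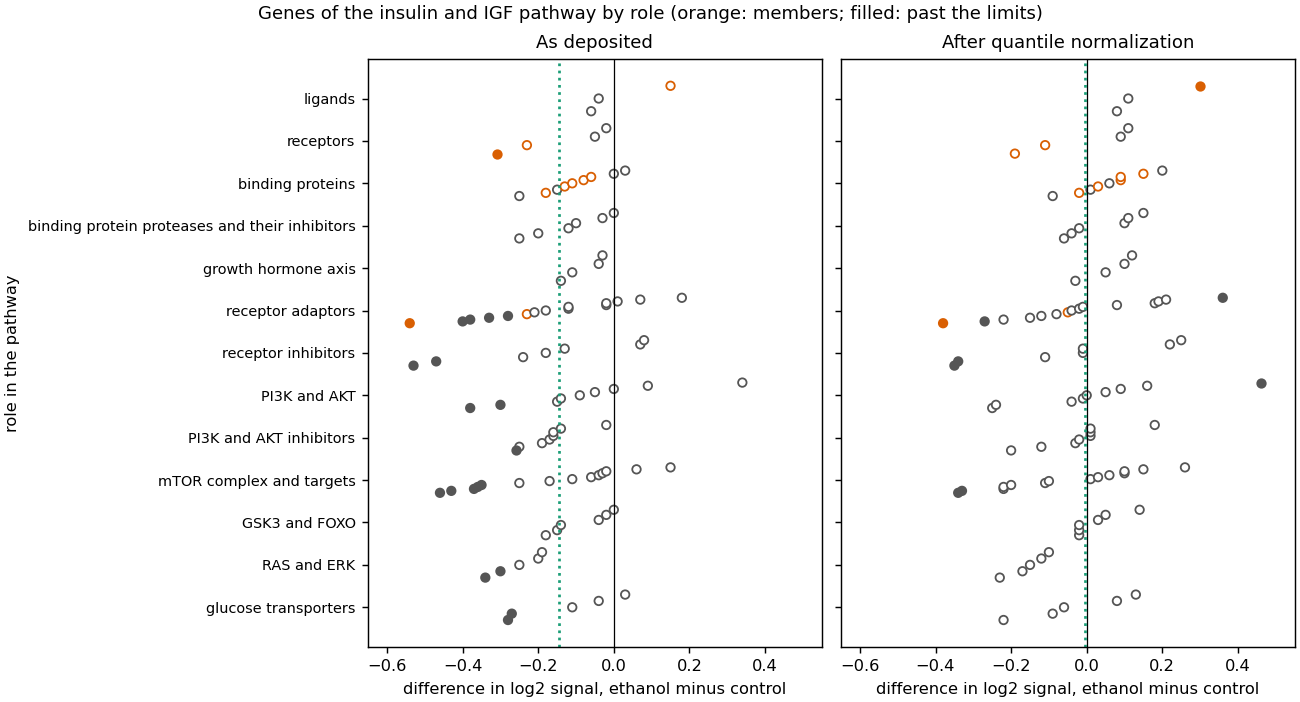
Difference in log2 signal, ethanol minus control (horizontal axis), of the listed genes of the pathway by role, as deposited at left and after quantile normalization at right. Orange marks the members, filled points are past the limits, the dotted line is the median of all probe sets, and Gh at -2.82 and -2.74 lies outside the axis. The filled points at left lie below 0, and after quantile normalization 6 filled points lie below 0 and 3 above.

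Whole brain was checked against markers of its cell types. All 8 neuron markers were measured, with a mean log2 signal between 11.52 and 11.68 on the 4 arrays, and 0 of the 8 passed the limits in either scaling. The same held for 8 astrocyte, 8 microglia and 8 pericyte and smooth muscle markers. As deposited 1 of 7 oligodendrocyte, 2 of 7 endothelial, 1 of 7 choroid plexus and 1 of 10 meninges markers were lower, 1 of 10 meninges markers was higher, and 0 of 2 blood markers passed. Of all probe sets naming 1 gene, 16.0% were lower past the limits as deposited and 0.546% higher. After quantile normalization 1 oligodendrocyte marker was lower, and 1 endothelial and 1 meninges marker were higher. The shares of all probe sets naming 1 gene were then 3.43% lower and 3.65% higher. Whether the marker counts differ from these shares was not tested. Oligodendrocyte markers averaged 11.29 and 11.21 on the controls against 11.06 and 11.12 under ethanol as deposited, and 11.26 and 11.21 against 11.07 and 11.15 after quantile normalization, with medians of -0.18 and -0.13. The oligodendrocyte marker past the limits in both scalings was Cnp, a myelin enzyme gene, at -0.29 in each. Mal, of the same list, went the other way, at 0.05 as deposited and 0.10 after quantile normalization. The meninges marker Slc6a13 was higher past the limits in both scalings, at 0.35 and 0.49. These genes are named here after their values were seen. Choroid plexus markers averaged 8.37 and 8.45 against 8.15 and 8.25 as deposited, and their median of -0.24 became -0.06 after quantile normalization. The part of these markers in the differences of the members was not tested. In whole-brain RNA, fewer cells of a type and less RNA per cell cannot be told apart.

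In the growth hormone axis, which drives Igf1 in liver, Gh set 1 array apart. Gh, the hormone gene of the pituitary, was at 12.24, 12.19 and 12.26 on control 1, control 3 and ethanol 4, and at 6.53 on ethanol 2. Prl, the prolactin gene, was at 10.21, 10.10 and 10.60 on the same arrays and at 5.05 on ethanol 2. The 7 measured pituitary markers had a mean of 7.96, 7.90 and 7.92 on the 3 arrays and of 5.61 on ethanol 2. Not all of them followed this pattern. Cga did, at 9.10, 9.32 and 9.39 on the 3 arrays and 5.75 on ethanol 2. Tshb read 5.90, 5.73 and 5.70 against 5.62. Pomc was lower on both ethanol arrays, at 5.95 and 6.09 on the controls and 5.48 and 5.50 under ethanol. Of the 7, 1 passed the limits, lower, in both scalings, and it was Pomc. Without ethanol 2 the difference of Irs1 was -0.64 as deposited and -0.48 after quantile normalization, and that of Igf1 was 0.19 and 0.33. These values have the same signs as with all 4 arrays, but their ethanol group is ethanol 4 alone, whose labels disagree. Whether the Gh pattern of ethanol 2 bears on Irs1 or Igf1 was not tested. The somatostatin gene Sst, whose peptide restrains growth hormone release, was at -0.03 (SE 0.12). The other genes of the axis, Ghr, Ghrh and Ghrhr, were lowest on ethanol 2 as deposited, at 7.82, 5.79 and 6.38. That array also had the lowest median over all probe sets. After quantile normalization only Ghrhr was still lowest on ethanol 2, and Ghr and Ghrh were lowest on control 1. Their differences, ethanol minus control, were -0.04, -0.14 and -0.11 as deposited. After quantile normalization these were 0.12, 0.05 and 0.10, and none passed the limits in either scaling.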

How the data were processed

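The methods state that the probes were summarized to gene level with RMA adjusted for GC content, including quantile normalization. Partek was used, in version 6.6 in the submitters' notes and another version in the methods. Log2 values were deposited, and their array medians ran from 6.33 to 6.61. The 4 arrays thus did not share 1 distribution as deposited, and the reason was not tested. The 35556 probe sets held 0 missing cells and ran from 3.96 to 15.06, and 21789 name 1 gene, 1621 several and 12146 none in the platform annotation. It names no genome build, so no probe set coordinates are given. The symbols of all 12 member probe sets matched a mouse gene table by gene ID, and 11 by accession.

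All probe sets were fitted with limma 3.58.1 in R 4.3.3 (2 residual and 2.57 prior degrees of freedom, two-sided), as deposited and after quantile normalization, with Benjamini-Hochberg adjustment over all of them. The limits of 1.2-fold and p 0.05 are those of the methods. The fit was tested on simulated data. The simulated arrays had independent noise and no shift between arrays. That test therefore cannot show how the fit behaves under the differing array medians seen here. As these are arrays, their number limits the precision, and p-values measure the spread between pools.

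Members, lists, tests and alternatives were chosen with earlier results of these data known. Text names every member probe set, the highest and lowest other gene of each role, pathway genes past the limits in both scalings, and Gh and Prl. A few other listed genes were named after their values were seen. Alternatives tried were groups by treatment entry, control 3 with ethanol 2 alone, median centring, quantile normalization, a mean log2 of 5 or more, an intensity trend, the methods' test for each probe set by itself, each array left out, replicate blocks, probe sets naming 1 gene, all probe sets of a pathway gene and a 1.5-fold limit. Quantile normalization with an array left out, and with the grouping by the treatment entry, was added after the data were seen.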

Additional observations from a re-analysis of the deposited data

How the results depend on the processing

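With 2 arrays in a group, no member passed adjustment over all probe sets, and the choice of scaling and of grouping moved most counts. The cause was not tested. Beside the 3 members lower past the limits, quantile normalization and centring on medians each gave 1 (Irs1). The methods' test gave 1 (the dimmer Insr probe set). The treatment entry, the treatment entry with quantile normalization and a 1.5-fold limit gave 0. Leaving out 1 array gave 1 to 3, and with quantile normalization 0 to 1. Beside 0 higher, quantile normalization and centring each gave 1, and leaving out 1 array 0, or 0 to 1 with quantile normalization. Beside the 18 lower genes of the wider pathway, quantile normalization gave 5, centring 1, the methods' test 9, and the treatment entry (either scaling) and 1.5-fold 0. Leaving out 1 array gave 6 to 11, and with quantile normalization 2 to 3. Beside 0 higher, quantile normalization gave 2, centring 7, and the replicate block of control 1 with ethanol 4 and the fit of probe sets naming 1 gene 1 each. Leaving out 1 array gave 0 to 1, and with quantile normalization 0 to 3.

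The median member difference of -0.153 became 0.005 under quantile normalization, 0.059 under centring, 0.003 by the treatment entry (-0.014 with quantile normalization), -0.181 on control 3 and ethanol 2 alone and -0.178 above a mean log2 of 5. With 1 array left out it ran from -0.181 to -0.110, and with quantile normalization from -0.067 to 0.048 (-0.007 without ethanol 2 and 0.01 without ethanol 4). Members without overlap fell from 8 lower to 3, 2 and 2 under quantile normalization, centring and the treatment entry, and went from 1 higher to 4, 4 and 0. Leaving out 1 array gave 8 to 11 lower and 1 higher. With a single array in a group, groups stand apart more easily, so these counts do not show that the members are stable. The share of all probe sets without overlap was taken only for the 4 arrays as deposited and after quantile normalization.

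Signs turned by the treatment entry for Igf1r (0.15, and 0.14 with quantile normalization), Irs1 (0.20 and 0.17), Irs2 (0.03), Igfbp3 (0.12) and Igfbp6 (0.02). They turned under quantile normalization and centring for the second Irs1 probe set (0.07 and 0.14), Igfbp2 (0.15 and 0.15), Igfbp3 (0.03 and 0.03), Igfbp4 (0.09 and 0.13) and Igfbp6 (0.09 and 0.10), and under centring for Igfbp5 (0.08). The labels give the groups no shared replicate numbers, so no pairing was assumed. As a replicate block, control 1 with ethanol 2 gave 3 lower members and control 1 with ethanol 4 gave 2. Control 3 and ethanol 2 alone allow no test and so no count past the limits.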
